A study of Mus musculus with 16 samples.

Results

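The genes described here code for the path that carries glucose into brain cells, splits it to pyruvate and lactate, stores it as glycogen and burns it in the citrate cycle. They are 54 genes picked by name, of 35328 genes in the deposited table of read counts. Each was found through its Ensembl identifier in the GENCODE M21 annotation of the mouse genome build mm10. The 54 symbols took up 55 entries of the table, since Aldoa has a second identifier that held little signal, and all 54 were counted deeply enough to be tested, as were 17830 genes in all. RNA came from the dorsal hippocampus of 16 male C57Bl6/J mice, 4 in each of 4 groups. HC_water mice drank water and were taken at rest from the home cage. HC_Caffeine mice, also taken from the home cage, had caffeine at 0.3 g/L in the drinking water for 2 weeks, starting at 8 to 9 weeks of age. MWM_water and MWM_Caffeine mice had the same drinks, were trained for 3 days in the Morris water maze, a spatial learning task in a pool, and were taken 1 hour after the last session. The labels name no deletion or transgene in any group. Training came with swimming and handling, which cannot be told apart from learning in this design.

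Glucose enters the brain through facilitative transporters, is phosphorylated by hexokinase, passes the committed step at phosphofructokinase and is split by aldolase into trioses that end as pyruvate. Pyruvate is either reduced to lactate, which monocarboxylate transporters move between astrocytes and neurons, or taken into mitochondria, where the pyruvate dehydrogenase complex turns it into acetyl-CoA for the citrate cycle. The complex is switched off by pyruvate dehydrogenase kinases and on by phosphatases, and glycogen, held mainly in astrocytes, is a local reserve that phosphorylase opens. In the hippocampus this supply is known to be drawn on when neurons fire and during memory formation.

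Library totals ran from 23078094 to 49949281 counted reads. The values given for a gene are CPM, its counts relative to the library total after scaling by edgeR's TMM method. Of 7 markers of hippocampal principal neurons (Prox1, C1ql2, Wfs1, Fibcd1, Spink8, Neurod6 and Slc17a7), none was at 0 in any library. They summed to between 2076 and 2473 CPM per mouse. With no other tissue to compare, these values are no test of the tissue label. Some libraries stood apart from their groups. HC_Caffeine 17, numbered as the animal, was farthest out on the first principal component (18.4% of the variance) and had the highest share of counts on mitochondrial genes, 4.49% against 3.23% to 3.89% in the other mice. HC_water 20 had the highest sum of 7 choroid plexus markers (2327 CPM, against 115 to 498 CPM in the 12 mice of the other groups), and MWM_water 24 the highest sum of 6 oligodendrocyte markers (11735 CPM). Choroid plexus signal was not confined to HC_water 20. The marker Ttr stood at 245, 1026, 812 and 2161 CPM in HC_water 6, 8, 11 and 20, against 74.0 to 421 CPM in the other groups. After learning, 3 of 6 microglia markers (Cx3cr1, C1qa and Aif1) and 1 of 7 astrocyte markers (Gfap) were called lower under caffeine, 3 of 7 choroid plexus markers were lower under water, and 0 of 6 oligodendrocyte and 0 of 6 endothelial markers were called under either drink. The log2 fold changes of all 6 oligodendrocyte markers were above 0 under water (median 0.21) and under 0 under caffeine (median -0.41), and their sum was 5113 to 7316 CPM in HC_water, 5195 to 8805 in HC_Caffeine, 5043 to 11735 in MWM_water and 4897 to 6860 in MWM_Caffeine. In the average, 6 of 7 choroid plexus markers were lower, as were Cx3cr1, C1qa, Aif1, Gfap, the endothelial Cldn5 and the neuronal Wfs1. Of all genes tested, 2.13% were called lower under caffeine, 0.331% under water and 6.71% in the average. The part of these cell types in the differences below was not tested. The counts of called members are also given without HC_Caffeine 17, HC_water 20 and MWM_water 24 together, a choice made after seeing the data. That fit keeps HC_water 8 and 11, so it does not remove the choroid plexus signal from comparisons with HC_water. In bulk tissue, fewer cells of a type and less RNA per cell cannot be told apart.

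The enzymes of the pathway differed far more in level than any gene did between the groups. Levels are compared between genes per kilobase of exon, as mean ± SD over all 16 mice. The highest belonged to Aldoa, the main aldolase, at 549 ± 30.5 CPM per kilobase. Next came the malate dehydrogenase Mdh1, at 267 ± 15.004, and the brain aldolase Aldoc, at 263 ± 22.6, whose ranges overlapped, followed by the neuronal enolase Eno2, at 220.5 ± 10.1, whose highest mouse (241 CPM per kilobase) lay just above the lowest in Aldoc (240.03). Lowest was Slc16a3, a monocarboxylate transporter that exports lactate, at 0.362 ± 0.0974 CPM per kilobase, followed by the hexokinase Hk2 at 1.32 ± 0.138. In several steps 1 isoenzyme dominated: Hk1 over Hk2 by 38.4 ± 3.88 times (SD, n = 16), Eno2 over Eno1 by 6.67 ± 0.424 times and the brain glycogen phosphorylase Pygb over the muscle form Pygm by 9.35 ± 0.967 times. Among the phosphofructokinases, Pfkm stood per kilobase 6.66 ± 0.401 times above Pfkp and 2.70 ± 0.137 times above Pfkl. The first of these ratios rests largely on exon length, 13401 bases in Pfkp against 3340 in Pfkm. In plain counts Pfkp reached 0.523 to 0.690 of Pfkm, and Pfkl 0.692 to 0.813, so no form clearly dominated. The glucose transporters Slc2a1, at 21.1 ± 2.70 CPM per kilobase, and Slc2a3, at 19.7 ± 2.23, overlapped in their ranges per kilobase. This overlap rests on exon length, 7245 bases in Slc2a3 against 3506 in Slc2a1. In plain counts Slc2a1 reached 0.422 to 0.660 of Slc2a3, so their order depends on the length used. Ranges per kilobase also overlapped for Hk1 and Pfkl, for Pgam1 and Pgk1 and for Mpc1 and Pdk4. They overlapped as well in the run from Idh3g through Idh3a, Sdhb and Ogdh to Sucla2, and for Suclg1, Sdhc and Fh1. None of these could be ordered. Other neighbours overlapped too, such as Mdh2 and Sdha, so the list is not complete.

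**Figure D1:**
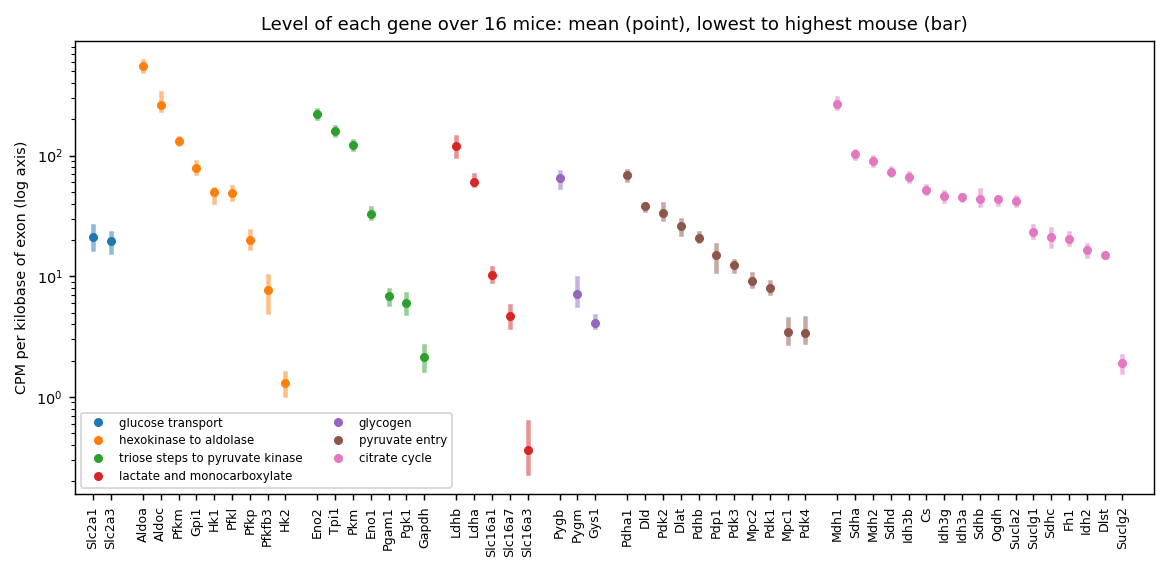
Level of each of the 54 genes in CPM per kilobase of exon on a log axis, grouped by role and sorted within the role. Points are means over 16 mice and bars run from the lowest to the highest mouse, from 0.362 for Slc16a3 to 549 for Aldoa on average.

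Some of these genes share much of their sequence with other genes. Only reads that aligned to a single place were counted, and 68.0% of the 50-base windows of Pgk1 transcripts occur exactly in transcripts of other genes, as do 58.4% of those of Gapdh, 49.5% of Eno1, 41.5% of Pgam1, 30.3% of Pdhb and 26.8% of Mpc1. Gapdh, the glyceraldehyde-3-phosphate dehydrogenase, was counted at only 2.14 ± 0.305 CPM per kilobase. The levels of these genes are therefore uncertain, as are, to a lesser degree, those of Ldhb and Suclg2, with 20.99% and 19.1% of windows shared. The ratio of Eno2 over Eno1 given above is uncertain for the same reason, since Eno2 shares only 0.197% of its windows. Whether the counting used strand is not given in the sources used here. Pfkm overlaps Gm26513 and Pkm overlaps Gm49759 on their own strand (10.2% and 15.3% of exon length), and Mpc1 (23.05%), Pdha1 (16.2%) and Gpi1 (11.5%) overlap a gene on the other strand.

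Replicate mice lay close together for most of these genes. The median SD within a group was 0.087 on the log2 scale over the 54 members (0.032 for Dlst to 0.36 for Slc16a3). Among genes with an average of at least 5 log2 CPM it was 0.079 for 44 members and 0.094 for all 6361 genes. Replicates were separate mice, and every pair of libraries in a group differed beyond sampling noise (chi-square of 5.65 to 33.2 per degree of freedom over genes).

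After learning, more RNA was counted for the glucose transporters, for the activator of phosphofructokinase Pfkfb3, for glycogen phosphorylase Pygb and for the pyruvate dehydrogenase phosphatase Pdp1. Less was counted for 2 subunits of succinate dehydrogenase, Sdhc and Sdhb, for a subunit of succinyl-CoA ligase, Suclg2, and for the lactate dehydrogenase Ldhb. The higher genes differed by between 1.08-fold and 1.30-fold. A gene was called at an adjusted p under 0.1 (quasi-likelihood test of edgeR, Benjamini-Hochberg adjustment over all 17830 genes), and differences are log2 fold changes ± SE from the same model with n = 4 mice per group. MWM_water against HC_water gave 1 higher member, Pdp1, and 0 lower ones. Of all genes tested, 0.639% were called higher and 0.331% lower. MWM_Caffeine against HC_Caffeine gave 4 higher members (Slc2a3, Pfkfb3, Pygb and Pdp1) and 1 lower member (Sdhc), where 3.16% of all genes were called higher and 2.13% lower. With the learning response averaged over both drinks, 5 members were higher (these 4 and Slc2a1) and 4 were lower (Sdhc, Sdhb, Suclg2 and Ldhb), where 7.81% of all genes were called higher and 6.71% lower. As shares of the 54 members, this was 1.85% higher under water, 7.41% higher and 1.85% lower under caffeine, and 9.26% higher and 7.41% lower in the average, so the averaged shares lay near those of all genes. The average uses the same 16 mice as the other learning comparisons and is no separate evidence.

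**Figure D2:**
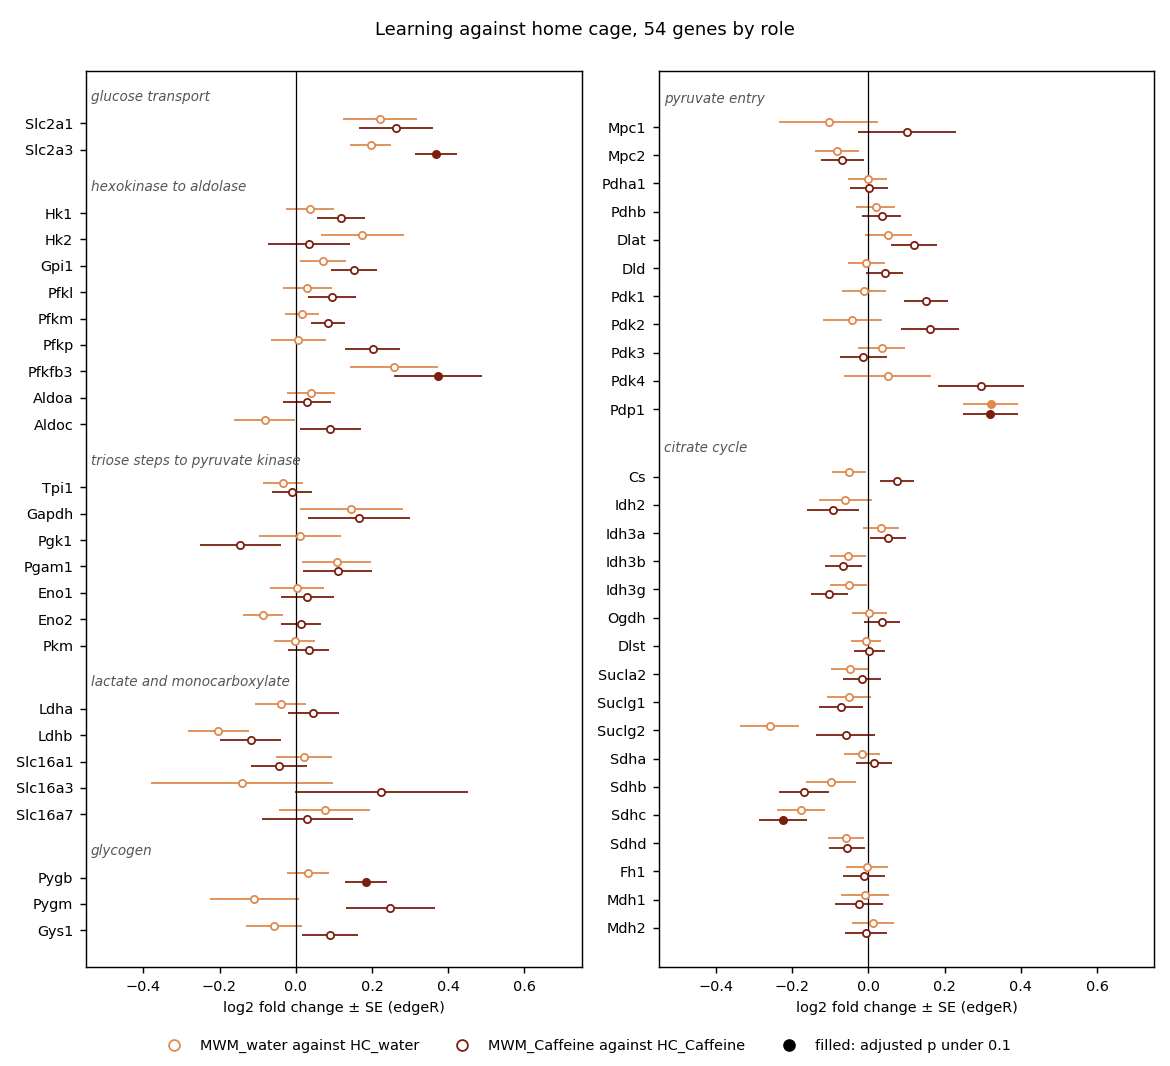
Log2 fold change ± SE of learning against home cage for the 54 genes, by role, in water mice (light) and caffeine mice (dark), with 4 mice per group. Filled points passed an adjusted p of 0.1 and are Pdp1 in both, and Slc2a3, Pfkfb3, Pygb and Sdhc in caffeine mice.

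Over all 54 members, the median log2 fold change after learning was -0.0032 in water mice (25 of 54 above 0) and 0.035 in caffeine mice (36 of 54 above 0), against -0.0055 and -0.012 over all genes tested. The groups compared did not overlap for 3 members in water mice and 5 in caffeine mice, where 6.99% and 10.9% of all genes did not. Without the 3 libraries that stood apart, 1 member was called in water mice (Pdp1), 2 in caffeine mice (Slc2a3 and Pdp1) and 6 in the average (Slc2a3, Pfkfb3, Pdp1 and Sdhc, and in addition Pgam1 and Gpi1). Calls among all genes fell too in that fit, to 80, 663 and 1713 of 17852, from 173, 942 and 2590 of 17830, so these lower counts are no result about the members. The calls among all genes also moved with each single library left out, from 37 to 312 in water mice, 382 to 1231 in caffeine mice and 1783 to 3191 in the average, so the shares over all genes given above hold for the fit to all 16 mice only. The count of members in water mice was 0 without HC_water 6, 11 or 20 or MWM_water 33, 36 or 38 (37 to 164 calls among all genes), and 2 without HC_Caffeine 17 (312). In caffeine mice it was 2 without HC_Caffeine 17 or MWM_Caffeine 22 or 30 (406, 576 and 382 calls among all genes), and 3 without HC_Caffeine 2 or MWM_water 33 (655 and 768). The averaged count was 5 without HC_Caffeine 17, MWM_water 24 or 33, or MWM_Caffeine 30 (1916, 3067, 1878 and 1783 calls among all genes).

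Both glucose transporters rose. Slc2a3, the high-affinity transporter of neurons (ENSMUSG00000003153, chr6:122727809-122801640, minus strand), was counted at 119.7, 132, 139 and 139.8 CPM in the HC_water mice and at 116, 123, 127 and 133 CPM in the HC_Caffeine mice. After training it stood at 148, 151, 151 and 158 CPM in the MWM_water mice and at 157, 159, 162 and 167 CPM in the MWM_Caffeine mice. Every trained mouse lay above every home cage mouse. Under caffeine the means were 125 ± 7.11 and 161 ± 4.23 CPM (SD, n = 4), a 1.29-fold rise (log2 fold change 0.37 ± 0.054, edgeR adjusted p = 0.00225), and the call held in 16 of 16 fits that each left out a library. Under water the means were 133 ± 9.42 and 152 ± 3.90 CPM, and the difference did not pass edgeR's test (log2 fold change 0.20 ± 0.054, edgeR adjusted p = 0.133), although DESeq2's Wald test called it (adjusted p = 0.0361). It also passed edgeR's test when HC_Caffeine 17 was left out (adjusted p = 0.0694). The average over drinks was 0.28 ± 0.038 (edgeR adjusted p = 0.000388).

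Slc2a1, the transporter of the blood-brain barrier and of astrocytes (ENSMUSG00000028645, chr4:119108711-119137983, plus strand), was counted at 60.2, 63.1, 71.8 and 79.03 CPM in HC_water and at 58.8, 63.3, 68.4 and 78.9 CPM in HC_Caffeine. It reached 74.98, 77.1, 82.5 and 85.1 CPM in MWM_water and 70.3, 78.7, 82.7 and 90.9 CPM in MWM_Caffeine. Trained and home cage mice overlapped under either drink, with 2 of 4 trained mice above all home cage mice of the same drink. Neither comparison passed alone (0.22 ± 0.10, edgeR adjusted p = 0.381 under water, and 0.26 ± 0.10, adjusted p = 0.155 under caffeine). Under caffeine it passed when HC_Caffeine 9 (adjusted p = 0.0767) or HC_water 6 (0.0887) was left out. The average did pass (log2 fold change 0.24 ± 0.069, edgeR adjusted p = 0.0390) and kept its call in 16 of 16 fits with a library left out, but not without the 3 libraries that stood apart (adjusted p = 0.101). The summed level of 6 markers of brain endothelial cells overlapped between the groups, at 183 to 201 CPM in HC_water, 162 to 213 in HC_Caffeine, 163 to 184 in MWM_water and 162 to 206 in MWM_Caffeine. The sum of 7 astrocyte markers ranged from 4397 to 5425 CPM over all mice.

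Of the 9 genes from hexokinase to aldolase, 1 was called higher, under caffeine and in the average. Of all genes tested, 3.16% and 7.81% were called higher there. The called gene was Pfkfb3. It makes fructose-2,6-bisphosphate, the strongest activator of phosphofructokinase (ENSMUSG00000026773, chr2:11471433-11554077, minus strand). Counts stood at 48.2, 49.7, 52.98 and 59.6 CPM in HC_water, 38.1, 49.6, 56.8 and 57.5 CPM in HC_Caffeine, 57.4, 61.8, 64.3 and 68.1 CPM in MWM_water and 55.3, 61.9, 67.999 and 76.3 CPM in MWM_Caffeine. Of the 4 trained mice of each drink, 3 lay above all home cage mice of that drink. Under caffeine the rise was 1.30-fold (log2 fold change 0.37 ± 0.12, edgeR adjusted p = 0.0954). That call was lost without HC_water 20, HC_Caffeine 14 or 17, MWM_water 33 or 36, or MWM_Caffeine 22, 30 or 40, with an adjusted p of up to 0.220, and without the 3 libraries together (adjusted p = 0.198). The average over drinks passed (log2 fold change 0.32 ± 0.082, edgeR adjusted p = 0.0262) in 16 of 16 fits with a library left out. In that average all 9 genes of this stretch had a log2 fold change above 0 (median 0.079, against -0.013 over all genes), also with DESeq2 size factors and with the length and GC correction, but the other 8 did not pass. Of these, Gpi1 passed in the average when HC_water 8 or 20, HC_Caffeine 2 or MWM_Caffeine 40 was left out (adjusted p = 0.0423 to 0.0905), Hk1 without HC_Caffeine 2 (0.0627) and Pfkp without HC_water 20 (0.0823). Pfkp also passed under caffeine without HC_water 6 (0.0651) or 20 (0.0950). The hexokinase Hk2 had 0.10 ± 0.077 (edgeR adjusted p = 0.414) and Aldoa 0.035 ± 0.044 (adjusted p = 0.659). Hk2 was counted at 6.62, 8.08, 8.10 and 8.23 CPM in the MWM_Caffeine mice, where a single mouse lay far below the others.

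Promoter sequences are shown for the called genes with an entry in the RefSeq promoter table (build GRCm38.p6), each from 250 bases before to 50 bases after a start site. They allow the members that moved together to be read beside each other. Capitals mark ACGTG or GCGTG on either strand (so also CACGT and CACGC), the core letters that hypoxia-inducible factors are known to bind. The match may overlap TGACG, part of a cAMP response element, in the run TGACGTG. Of the 54 members 49 had an entry, and of the 9 called members 6. No entry was found for Slc2a3, Pdp1 and Sdhc. They are the higher genes Slc2a1, Pfkfb3 (with both of its start sites) and Pygb and the lower genes Sdhb, Ldhb and Suclg2.
Slc2a1 (chr4:119108495-119108794, plus strand): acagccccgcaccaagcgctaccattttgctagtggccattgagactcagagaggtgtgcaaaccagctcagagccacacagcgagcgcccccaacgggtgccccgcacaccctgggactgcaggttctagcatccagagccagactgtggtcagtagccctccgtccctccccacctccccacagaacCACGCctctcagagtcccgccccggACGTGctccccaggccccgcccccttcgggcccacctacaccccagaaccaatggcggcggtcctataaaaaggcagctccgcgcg
Pfkfb3 first start (chr2:11553880-11554179, minus strand): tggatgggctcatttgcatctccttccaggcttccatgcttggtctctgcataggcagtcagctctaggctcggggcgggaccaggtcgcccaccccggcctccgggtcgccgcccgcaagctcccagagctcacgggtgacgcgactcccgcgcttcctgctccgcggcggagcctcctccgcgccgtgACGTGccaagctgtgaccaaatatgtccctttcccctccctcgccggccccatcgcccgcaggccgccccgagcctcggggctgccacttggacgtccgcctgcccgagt
Pfkfb3 second start (chr2:11502041-11502340, minus strand): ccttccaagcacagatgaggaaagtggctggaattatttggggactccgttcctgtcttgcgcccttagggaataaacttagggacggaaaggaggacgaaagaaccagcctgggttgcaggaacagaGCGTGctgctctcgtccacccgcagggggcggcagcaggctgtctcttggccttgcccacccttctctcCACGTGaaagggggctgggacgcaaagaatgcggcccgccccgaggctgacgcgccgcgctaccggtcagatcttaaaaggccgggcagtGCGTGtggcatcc
Pygb (chr2:150786546-150786845, plus strand): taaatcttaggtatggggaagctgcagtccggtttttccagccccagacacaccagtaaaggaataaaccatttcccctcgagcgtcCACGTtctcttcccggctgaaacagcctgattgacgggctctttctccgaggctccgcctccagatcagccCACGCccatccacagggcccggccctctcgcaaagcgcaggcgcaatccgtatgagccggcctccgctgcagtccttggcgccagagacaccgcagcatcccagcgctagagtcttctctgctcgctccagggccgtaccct
Sdhb (chr4:140961021-140961320, plus strand): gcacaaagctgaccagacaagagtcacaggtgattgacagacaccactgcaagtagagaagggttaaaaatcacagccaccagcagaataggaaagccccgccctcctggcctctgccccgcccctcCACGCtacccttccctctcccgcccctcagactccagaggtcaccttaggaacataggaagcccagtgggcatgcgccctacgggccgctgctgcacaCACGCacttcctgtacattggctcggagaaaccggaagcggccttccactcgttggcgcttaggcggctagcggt
Ldhb (chr6:142507908-142508207, minus strand): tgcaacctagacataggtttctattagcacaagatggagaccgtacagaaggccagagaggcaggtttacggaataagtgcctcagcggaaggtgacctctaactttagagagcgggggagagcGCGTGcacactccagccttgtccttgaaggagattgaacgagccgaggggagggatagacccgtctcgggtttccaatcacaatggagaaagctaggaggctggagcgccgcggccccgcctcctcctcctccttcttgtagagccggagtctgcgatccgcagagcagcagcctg
Suclg2 (chr6:95718797-95719096, minus strand): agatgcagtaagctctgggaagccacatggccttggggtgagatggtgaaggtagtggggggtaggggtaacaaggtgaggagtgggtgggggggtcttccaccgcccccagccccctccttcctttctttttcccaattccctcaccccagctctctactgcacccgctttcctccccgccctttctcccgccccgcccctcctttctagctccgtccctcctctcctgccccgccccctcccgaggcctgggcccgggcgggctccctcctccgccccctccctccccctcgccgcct
The second Pfkfb3 start held 4 matches, its first start 1, and Slc2a1, Pygb and Sdhb 2 each. Of those 4, 2 lie on the same stretch, CACGTG, which was counted once on each strand. Ldhb held 1 and Suclg2 had 0. Matches were therefore present in promoters of genes that rose and of genes that fell. Of 69 promoters of the members, 51 (73.9%) held at least 1 match, against 43.8% of all 32851 promoters in the table. TGACG was found in 34.8% and 20.8%. All these motifs hold CG, so their shares depend on base composition. The promoters printed here had 57.3% to 69.7% G and C, and the composition of members and of all promoters was not compared. The shares are therefore no result about the factors that bind these letters. A match describes letters in this window only.

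The steps from the trioses to pyruvate gave no call in any comparison over all 16 mice. Of their 7 genes (Tpi1, Gapdh, Pgk1, Pgam1, Eno1, Eno2 and Pkm), 4 were above 0 in the averaged learning response, with a median of 0.016, and 0 had an unadjusted p under 0.05. Eno2, the most abundant of these per kilobase, had -0.086 ± 0.052 under water and 0.013 ± 0.052 under caffeine (edgeR adjusted p = 0.539 and 0.918). Gapdh, often used as a reference gene, had 0.15 ± 0.14 and 0.17 ± 0.13 (edgeR adjusted p = 0.699 and 0.520), on the part of its transcript that reads could place.

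Among the 5 lactate genes, the lone call was in the average, where 6.71% of all genes were called lower. It was Ldhb, which fell. It codes for the lactate dehydrogenase subunit that favours the turn of lactate to pyruvate (ENSMUSG00000030246, chr6:142490249-142507957, minus strand). Ldhb was counted at 180.1, 191, 207 and 224 CPM in HC_water and 180.1, 192, 205 and 219 CPM in HC_Caffeine, and at 155, 174, 183 and 184 CPM in MWM_water and 168, 173, 189.9 and 202 CPM in MWM_Caffeine. The groups overlapped under either drink. The averaged difference passed narrowly (log2 fold change -0.16 ± 0.057, edgeR adjusted p = 0.0867). It kept its call only when HC_water 8, HC_Caffeine 14 or MWM_Caffeine 27 was the library left out, reaching an adjusted p of 0.226 otherwise. With the length and GC correction it shrank to -0.065 (adjusted p = 0.433), and without the 3 libraries that stood apart to -0.10 (adjusted p = 0.310). Of the transporters, Slc16a7, the high-affinity form of neurons, had 0.053 ± 0.084 in the average (edgeR adjusted p = 0.730), and Slc16a3 had 0.042 ± 0.16 (adjusted p = 0.902).

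Pygb, the glycogen phosphorylase of the brain (ENSMUSG00000033059, chr2:150786735-150831758, plus strand), rose after learning in caffeine mice. Its counts were 309, 309, 319 and 324 CPM in HC_water and 265, 291, 304 and 306 CPM in HC_Caffeine, and 308, 322, 328 and 331 CPM in MWM_water and 300.4, 332, 341 and 352 CPM in MWM_Caffeine. The HC_Caffeine mice had the lowest mean of the 4 groups, and all lay below every HC_water mouse. Learning under caffeine gave a 1.14-fold rise (log2 fold change 0.18 ± 0.056, edgeR adjusted p = 0.0860), which was lost without HC_Caffeine 2 or 17, MWM_water 33, or MWM_Caffeine 22, 27 or 30 (adjusted p of up to 0.198). Under water the difference was 0.032 ± 0.056 (edgeR adjusted p = 0.847). The average passed at 0.11 ± 0.039 (edgeR adjusted p = 0.0953) and was lost without HC_water 20, HC_Caffeine 17, MWM_water 24, 33 or 38, or MWM_Caffeine 27 or 30 (up to 0.148). Without the 3 libraries that stood apart neither call remained (adjusted p = 0.186 and 0.247). Pygm, the muscle form, had 0.25 ± 0.12 under caffeine and -0.11 ± 0.12 under water, and glycogen synthase Gys1 0.090 ± 0.073 and -0.056 ± 0.074, none past the test (edgeR adjusted p between 0.254 and 0.792), although Pygm passed under caffeine without MWM_Caffeine 40 (adjusted p = 0.0711).

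At pyruvate entry 1 of 11 genes was called, Pdp1, the phosphatase that reactivates the pyruvate dehydrogenase complex (ENSMUSG00000049225, chr4:11958184-11966452, minus strand). Of all genes tested, 0.639% were called higher under water, 3.16% under caffeine and 7.81% in the average. HC_water mice had 58.6, 59.4, 59.8 and 66.9 CPM and HC_Caffeine mice 50.1, 62.1, 62.2 and 63.2 CPM. MWM_water mice had 71.1, 74.9, 77.9 and 81.9 CPM and MWM_Caffeine mice 71.7, 71.8, 72.6 and 80.2 CPM. All 8 trained mice lay above all 8 home cage mice. It rose 1.25-fold under water, from 61.2 ± 3.84 to 76.5 ± 4.55 CPM (log2 fold change 0.32 ± 0.072, edgeR adjusted p = 0.0654), and 1.25-fold under caffeine, from 59.4 ± 6.23 to 74.1 ± 4.11 CPM (log2 fold change 0.32 ± 0.072, edgeR adjusted p = 0.0280). The call under caffeine held in 16 of 16 fits with a library left out. That under water held in 10 of 16 and was lost without HC_water 6, 11 or 20, or MWM_water 33, 36 or 38 (adjusted p of up to 0.193). Both held without the 3 libraries that stood apart (adjusted p = 0.0309 and 0.0448), and the average was 0.32 ± 0.051 (edgeR adjusted p = 0.00142).

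The other 10 genes of pyruvate entry gave no call. The catalytic subunit gene Pdha1 differed by -0.0004 ± 0.036 in the averaged learning response, with an interval of 2 SE from -0.072 to 0.072. Of the kinases that switch the complex off, Pdk4 had 0.30 ± 0.11 under caffeine and 0.050 ± 0.11 under water (edgeR adjusted p = 0.167 and 0.888), Pdk1 0.15 ± 0.058 and -0.011 ± 0.058 (adjusted p = 0.171 and 0.956), and Pdk3 -0.014 ± 0.061 and 0.035 ± 0.062 (adjusted p = 0.928 and 0.848). Without MWM_Caffeine 40, Pdk1 and Pdk4 passed under caffeine (edgeR adjusted p = 0.0370 and 0.0671) and in the average (0.0738 and 0.0696). The mitochondrial pyruvate carrier subunit Mpc2 had -0.075 ± 0.040 in the average (edgeR adjusted p = 0.256).

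In the citrate cycle 3 of 17 genes were called after learning, all lower. In the average 13 of 17 had a log2 fold change under 0 (median -0.033), with 11 of 17 under DESeq2 size factors and 11 of 17 with the length and GC correction. Over all genes the averaged median was -0.013, with 46.0% above 0 and 6.71% called lower. Sdhc, a membrane anchor of succinate dehydrogenase (ENSMUSG00000058076, chr1:171127165-171150603, minus strand), was counted at 63.8, 72.7, 74.3 and 76.5 CPM in HC_water, 70.6, 73.1, 73.6 and 80.4 CPM in HC_Caffeine, 58.1, 62.7, 65.6 and 67.6 CPM in MWM_water and 60.9, 63.6, 63.8 and 66.6 CPM in MWM_Caffeine. Under caffeine every trained mouse lay below every home cage mouse. Sdhc fell from 74.4 ± 4.17 to 63.7 ± 2.30 CPM there (log2 fold change -0.22 ± 0.063, edgeR adjusted p = 0.0658), a call lost without HC_water 11, HC_Caffeine 2 or 17, or MWM_Caffeine 22, 30 or 40 (adjusted p of up to 0.187) and without the 3 libraries that stood apart (adjusted p = 0.172). Under water the difference was -0.18 ± 0.063 (edgeR adjusted p = 0.257). The average passed (log2 fold change -0.20 ± 0.044, edgeR adjusted p = 0.0114) in 16 of 16 fits with a library left out and also without the 3 libraries (adjusted p = 0.0566).

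Sdhb, the iron-sulfur subunit of the same enzyme (ENSMUSG00000009863, chr4:140961203-140979193, plus strand), fell in the average. HC_water and HC_Caffeine mice had 91.2, 95.5, 101 and 109 CPM and 94.7, 101, 105 and 116 CPM. MWM_water and MWM_Caffeine mice had 90.2, 91.2, 94.3 and 95.4 CPM and 87.6, 91.7, 91.7 and 99.96 CPM, and the groups overlapped under either drink. Under caffeine it passed only without HC_Caffeine 14 (edgeR adjusted p = 0.0985). The averaged difference (log2 fold change -0.13 ± 0.046, edgeR adjusted p = 0.0813) was called only when HC_water 8, HC_Caffeine 9, HC_Caffeine 14 or MWM_Caffeine 27 was the library left out (otherwise up to 0.219). It lost the call with the length and GC correction (adjusted p = 0.227). HC_Caffeine 17, the mouse with the highest share of mitochondrial counts, was also the highest in Sdhb and Sdhc. That share was 3.46% to 4.49% in home cage mice and 3.23% to 3.59% in trained mice, and its part in these differences was not tested. Without that library Sdhc kept its averaged call and Sdhb lost it.

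Suclg2, the GTP-forming subunit of succinyl-CoA ligase (ENSMUSG00000061838, chr6:95473009-95718800, minus strand), was the lowest citrate cycle gene per kilobase and was counted at 8.84, 9.84, 10.04 and 10.1 CPM in HC_water and 8.39, 9.05, 9.05 and 9.18 CPM in HC_Caffeine. It stood at 7.47, 7.97, 8.15 and 8.83 CPM in MWM_water, all below the HC_water mice, and at 7.84, 8.65, 8.73 and 8.97 CPM in MWM_Caffeine. Under water the difference did not pass the test (log2 fold change -0.26 ± 0.078, edgeR adjusted p = 0.174). The average did (log2 fold change -0.16 ± 0.055, edgeR adjusted p = 0.0814), but kept its call only when HC_water 20, HC_Caffeine 2, MWM_water 38 or MWM_Caffeine 27 was the library left out (otherwise up to 0.186). The other 14 citrate cycle genes were not called. Citrate synthase, Cs, had 0.012 ± 0.031 in the average (edgeR adjusted p = 0.843), the isocitrate dehydrogenase subunits Idh3g and Idh3b -0.077 ± 0.034 and -0.060 ± 0.034 (adjusted p = 0.165 and 0.284), and Mdh1 -0.017 ± 0.044 (adjusted p = 0.843).

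**Figure D3:**
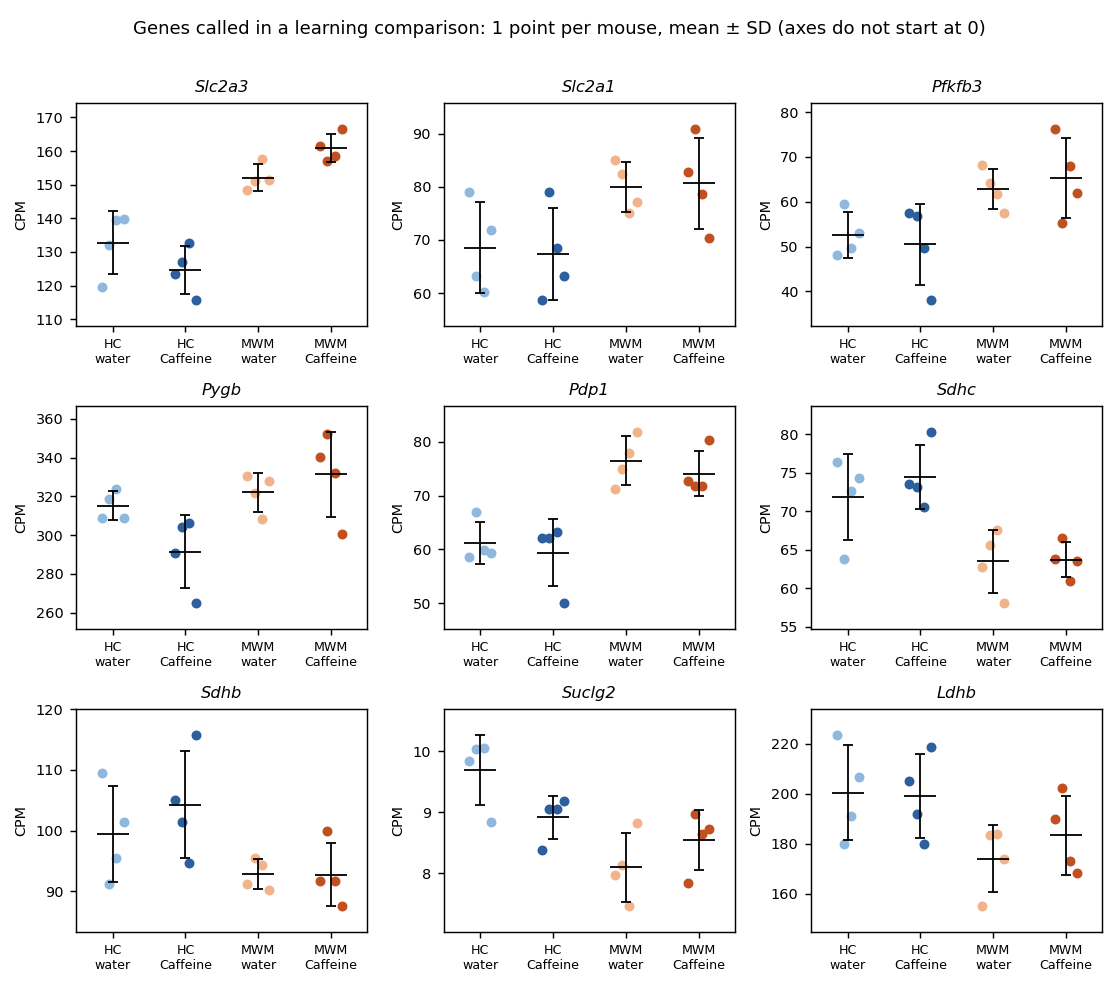
CPM of the 9 called genes in each mouse, with group mean ± SD (n = 4) and axes that do not start at 0. Slc2a3 and Pdp1 separate all 8 trained from all 8 home cage mice, and the other 7 genes overlap between them.

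The neighbours of this pathway, 125 further genes in 9 lists of which 114 were tested, gave 1 higher and 1 lower call under water, 4 and 1 under caffeine, and 8 and 8 in the average. Of all genes tested, 0.639% were called higher and 0.331% lower under water, and 3.16% and 2.13% under caffeine. In the average it was 7.81% and 6.71%, so 8 of 114 in each direction lay near the share of all genes. The median log2 fold change of the 114 genes in the average was -0.023. In glycogen metabolism (20 genes, 1 higher under water), the call was Ppp1r3c, a scaffold that brings protein phosphatase to glycogen and favours its synthesis. It was counted at 52.1, 52.8, 52.98 and 53.9 CPM in HC_water and 63.4, 71.6, 72.9 and 73.2 CPM in MWM_water, with no overlap, and at 51.4, 52.4, 55.5 and 58.1 CPM in HC_Caffeine and 53.7, 58.3, 58.3 and 65.7 CPM in MWM_Caffeine. Ppp1r3c rose under water (log2 fold change 0.41 ± 0.063, edgeR adjusted p = 0.00527) and had 0.12 ± 0.063 under caffeine (adjusted p = 0.325). Set against each other, the responses differed by -0.29 ± 0.089, which did not pass (edgeR unadjusted p = 0.00440, adjusted p = 0.99997).

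Of 18 genes of glucose and hypoxia regulated transcription, 4 were called higher under caffeine (3.16% of all genes) and 0 under water (0.639%). They were Vegfa, a hypoxia-induced growth factor (log2 fold change 0.40 ± 0.092, edgeR adjusted p = 0.0295), Arrdc4, a glucose-induced arrestin that limits glucose uptake (log2 fold change 0.35 ± 0.075, edgeR adjusted p = 0.0232), Mlxip, a glucose-sensing transcription factor (log2 fold change 0.24 ± 0.059, edgeR adjusted p = 0.0403), and Ddit4, a stress-induced inhibitor of mTORC1 (log2 fold change 0.36 ± 0.11, edgeR adjusted p = 0.0991). Vegfa was counted at 65.7, 75.6, 79.3 and 80.3 CPM in HC_Caffeine and 86.9, 94.7, 105 and 111 CPM in MWM_Caffeine, without overlap. Mean CPM in HC_water, HC_Caffeine, MWM_water and MWM_Caffeine was 17.4, 14.8, 18.8 and 18.9 for Arrdc4. In the same order it was 59.3, 52.8, 64.1 and 67.7 for Ddit4, 41.2, 42.2, 46.6 and 49.8 for Mlxip, and 68.6, 75.2, 79.9 and 99.4 for Vegfa. Under water the log2 fold changes were 0.22 ± 0.093 for Vegfa, 0.11 ± 0.075 for Arrdc4, 0.18 ± 0.059 for Mlxip and 0.12 ± 0.11 for Ddit4. The difference between the responses passed for none of the 4 (edgeR adjusted p = 0.99997 for each). These calls are therefore not shown to be particular to caffeine mice. The average added Mlx, the partner of Mlxip (log2 fold change 0.12 ± 0.034, edgeR adjusted p = 0.0432). Of 23 further genes of the citrate cycle, its assembly and its shuttles, the lone call was lower under caffeine and in the average. Of all genes, 2.13% and 6.71% were called lower there. This call was Sdhaf1, which assembles succinate dehydrogenase. Of its exon length 69.6% overlaps the protein-coding gene E130208F15Rik on the other strand, so its counts cannot be told apart from that gene's if strand was not used. It fell from 13.3, 13.5, 15.1 and 15.8 CPM in HC_Caffeine to 10.97, 11.5, 11.6 and 12.7 CPM in MWM_Caffeine (log2 fold change -0.31 ± 0.083, edgeR adjusted p = 0.0577). Under water Sdhaf1 had -0.29 ± 0.083 (edgeR adjusted p = 0.151).

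The remaining calls in these lists were single genes. Slc16a8, the lactate transporter of choroid plexus and retinal epithelium, fell under water (log2 fold change -2.45 ± 0.47, edgeR adjusted p = 0.0320). It was counted at 0.397, 1.10, 1.37 and 2.96 CPM in HC_water and 0.156, 0.225, 0.275 and 0.456 CPM in MWM_water. The sum of the 7 choroid plexus markers moved with it, at 304 to 2327 CPM in HC_water and 162 to 430 CPM in MWM_water, with 3 of the 7 markers called lower and none at 0, and their part in the result was not tested. In the average, the transporters Slc2a9 (-0.22) and Slc2a12 (-0.50), the side isoenzymes Hkdc1 (-0.39) and Pgam2 (-0.35), the liver glycogen synthase Gys2 (-0.59) and the lipoyl synthase Lias (-0.15) were lower. Rpe of the pentose phosphate pathway (0.12) and the glycogen-targeting subunit Ppp1r3d (0.25) were higher. Slc2a12 was counted at 5.04, 8.03, 8.55 and 13.8 CPM in HC_water 6, 8, 11 and 20, against 3.94 to 6.45 CPM in the other groups. The choroid plexus marker Ttr stood at 245, 1026, 812 and 2161 CPM in the same HC_water mice. The part of choroid plexus in the Slc2a12 difference was not tested. Gluconeogenesis had no call in the learning comparisons among its 3 tested genes of 7.

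Caffeine against water gave 0 called members at rest, 0 after learning and 0 in the average of both, as it gave 0 calls among all 17830 genes in each (0% called by edgeR, at an adjusted p under 0.1). At an unadjusted p under 0.05 there were 1 member at rest (Cs), 1 after learning (Slc16a3) and 0 in the average, against 636, 700 and 725 genes of all those tested. DESeq2 called 0 members in each as well, and 19, 7 and 15 of all genes. The count of members stayed at 0 where other fits called some of all genes: with a filter of 1 count in total, 34 at rest, 8 after learning and 36 in the average, and without HC_water 6, 33, 0 and 24. The median log2 fold change of the members was -0.024 at rest, with 16 of 54 above 0, and 0.018 after learning, with 34 of 54 above 0. Over all genes it was -0.0031 and -0.0043. Without the 3 libraries that stood apart, 29 of 54 were above 0 at rest (median 0.0094) and 39 of 54 after learning (median 0.024). Caffeine and water mice did not overlap at rest for 2 members, Cs and Pygb, and after learning for 0, where 1.99% and 2.6% of all genes did not.

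**Figure D4:**
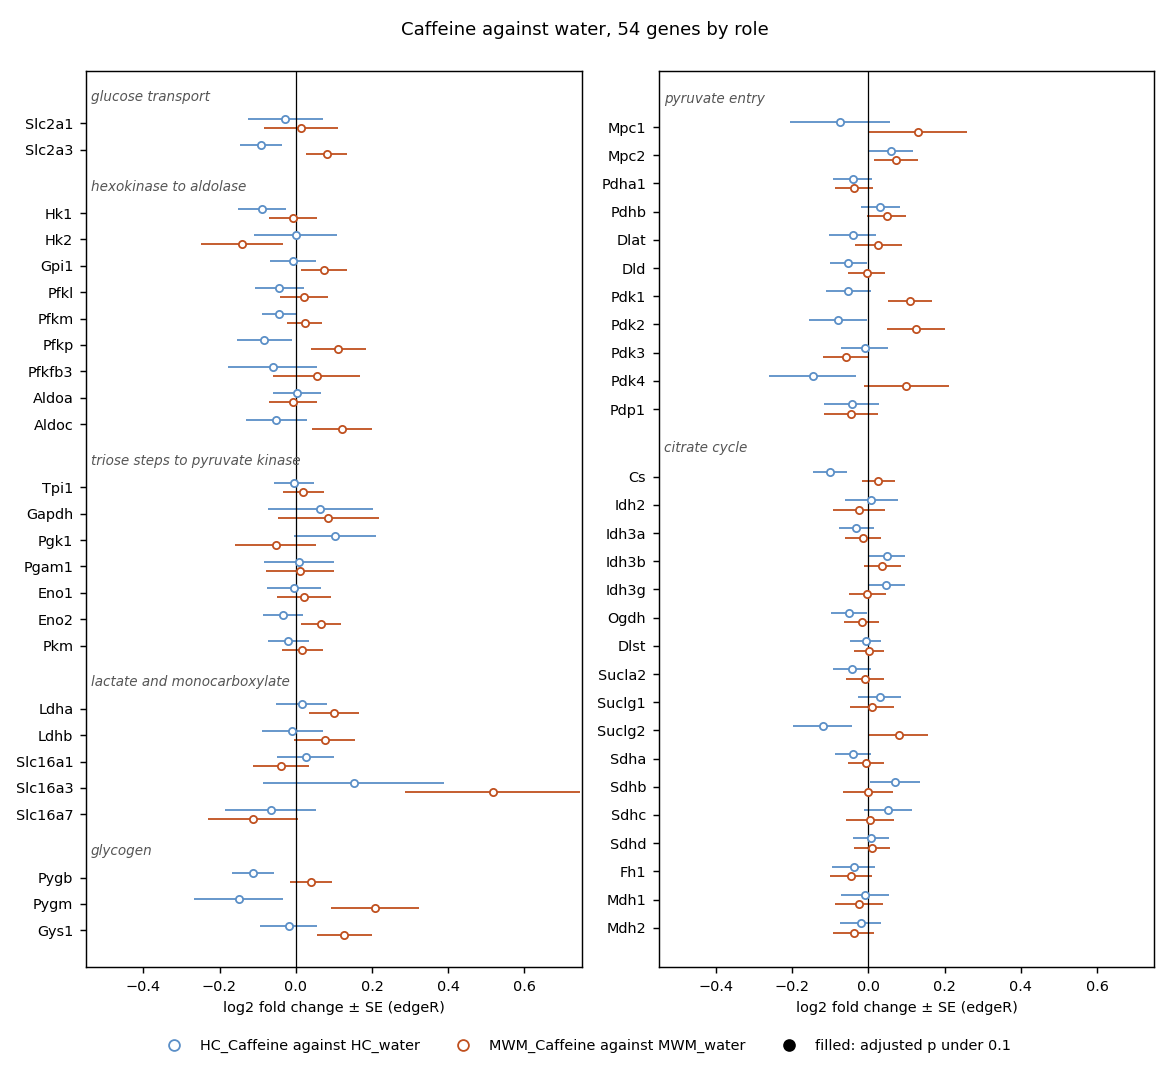
Log2 fold change ± SE of caffeine against water for the 54 genes, by role, at rest (blue) and after learning (orange), with 4 mice per group. All points are open, since none passed an adjusted p of 0.1, and the highest is Slc16a3 after learning, at 0.52 ± 0.23.

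Cs, citrate synthase (ENSMUSG00000005683, chr10:128337734-128362479, plus strand), was counted at 304, 308, 312 and 317 CPM in HC_water and 285, 288, 292 and 292 CPM in HC_Caffeine. The groups did not overlap, but the difference did not pass (log2 fold change -0.10 ± 0.044, edgeR adjusted p = 0.997, unadjusted p = 0.0354). Pygb had -0.11 ± 0.056 at rest (edgeR adjusted p = 0.997). After learning, Slc16a3 was counted at 1.34, 1.69, 1.69 and 1.74 CPM in MWM_water and 1.34, 2.25, 2.40 and 3.28 CPM in MWM_Caffeine, with 3 of 4 caffeine mice above all water mice. Its difference was 0.52 ± 0.23 with an interval of 2 SE from 0.059 to 0.97 (edgeR adjusted p = 0.999). Pdk1 had 0.11 ± 0.058 and Pygm 0.21 ± 0.12 after learning, neither past the test (edgeR adjusted p = 0.999 for both). For Slc2a3 the interval of the caffeine difference was -0.20 to 0.018 at rest and -0.027 to 0.19 after learning, and for Pdp1 -0.19 to 0.10 and -0.19 to 0.10.

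The learning response was not shown to differ between the drinks for any member. The test of that difference called 0 members and 0 of all genes (0% of 17830, edgeR), and DESeq2 0 members and 7 of all genes. At an unadjusted p under 0.05 it gave 2 members, Slc2a3 (0.17 ± 0.077, unadjusted p = 0.0381) and Pygm (0.36 ± 0.16, unadjusted p = 0.0440), against 648 of all genes. Both had an adjusted p of 0.99997. For Pdp1 the difference between the responses was -0.0014 ± 0.10 and for Sdhc -0.047 ± 0.089. The calls found under caffeine alone are therefore not shown to be particular to caffeine mice.

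Ratios within a mouse were compared for 11 pairs of members, such as isoenzymes of a step, in 4 comparisons, by an exact two-sided permutation test of 4 against 4 mice with 70 assignments. Of these 44 tests, 0 had an adjusted p under 0.1. The smallest p that this design allows, 0.0286, was reached by 2, each with an adjusted p of 0.629. These were the platelet over the muscle form of phosphofructokinase, Pfkp over Pfkm, whose log2 ratio of counts was -0.77 ± 0.042 in HC_Caffeine and -0.66 ± 0.083 in MWM_Caffeine (SD, n = 4), and Suclg2 over its ATP-forming partner Sucla2, at -4.14 ± 0.12 in HC_water and -4.36 ± 0.082 in MWM_water. The ratio Ldha over Ldhb was higher by 0.16 after learning under water and by 0.17 under caffeine (exact permutation p = 0.0857 and 0.0571, adjusted p = 0.754 and 0.629).

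**Figure D5:**
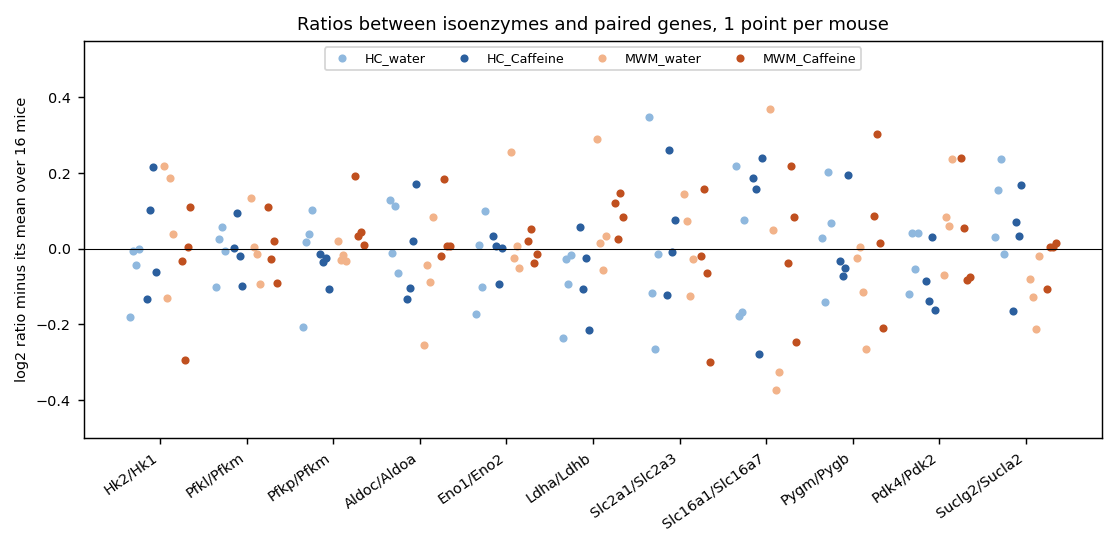
Log2 ratio of counts of 11 pairs of genes in each mouse, minus the mean of that ratio over all 16 mice, colored by group. Most groups overlap within each pair, and the widest scatter is in Slc16a1 over Slc16a7.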

How the data were processed

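RNA-Seq was done on dorsal hippocampus of 16 mice. The table deposited by the authors holds raw counts of reads for each Ensembl gene, without normalization. According to the methods and the submitters' processing notes (bcl2fastq 2.17.1.14, STAR, HTSeq 0.6.1p1), stranded mRNA libraries were read as 50-base single ends, mapped to mm10 with STAR and Bowtie 2, and uniquely aligned reads were counted with HTSeq-count in union mode on Ensembl genes. Replicates were not pooled, no molecular identifiers were used, and no column was left unused (0).

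The groups were taken from the sample labels. For testing, edgeR 4.0.16 (R 4.3.3) was used on genes kept by filterByExpr with the 4 groups (17830 genes), with TMM factors, 1 mean per group over 16 libraries, the quasi-likelihood test and Benjamini-Hochberg adjustment, with calls at an adjusted p under 0.1. SE is the absolute log2 fold change divided by the square root of F. Totals of 23078094 to 49949281 counts (median 36437284.5) gave a median SE of 0.10 per gene between 2 groups. CPM use the TMM-scaled total. Positions and exon lengths come from GENCODE M21 (35247 genes matched). Alternatives were DESeq2 1.42.0 (Wald test or size factors), edgeR on the 8 libraries compared, an adjusted p under 0.05, filters of 1 count in total or 10 counts in every library, a length and GC correction, robust empirical Bayes estimation, and each library left out. Leaving out 3 libraries together was chosen after seeing the data. The scripts were tested on simulated data.

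The members and all lists were chosen with earlier results of these data known. Members were named if called in any comparison, if among the 3 of smallest p in a direction of a comparison of 2 groups, or if of highest or lowest level per kilobase in their role; other listed genes were named where called. Genes outside this rule (such as Aldoc, Pgam1, Gpi1, Pfkp or Idh3a) were named for counts, levels or ratios after their values were seen.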

Additional observations from a re-analysis of the deposited data

Results flagged for a closer look

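In 7 of 104 groups of 4 mice (26 named genes in 4 groups), a single mouse lay far from the other 3 by Dixon's criterion for a gap, which chance gives in about 1 group of 20. Hk2 was lowest in MWM_Caffeine 27, at 6.62 CPM against 8.08 to 8.23 in the others. Slc16a3 was lowest in MWM_water 38, at 1.34 CPM against 1.69 to 1.74. Pdp1, which rose after learning, had such a mouse in 3 groups. It was highest in HC_water 8, at 66.9 CPM against 58.6 to 59.8, lowest in HC_Caffeine 17, at 50.1 CPM against 62.1 to 63.2, and highest in MWM_Caffeine 40, at 80.2 CPM against 71.7 to 72.6. Suclg2 was lowest in HC_Caffeine 2, at 8.39 CPM against 9.05 to 9.18. Mdh1 was highest in HC_Caffeine 2, at 767 CPM against 652 to 670.2. The learning call of Pdp1 under caffeine held without HC_Caffeine 17 and without MWM_Caffeine 40, each left out alone.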

How the results depend on the processing

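No called result reversed under any alternative run. The members' median log2 fold change for caffeine in the home cage, with no test, was -0.024 over all 16 mice and 0.0094 without the 3 libraries that stood apart. For learning under water, the count of called members was 0 at an adjusted p under 0.05 (70 of all genes) and 2 by DESeq2's Wald test (Slc2a3 and Pdp1; 426 of all genes), against 1 (173). For learning under caffeine it was 2 at an adjusted p under 0.05 (449 of all genes), 8 by DESeq2 (with Slc2a1, Pfkp and Gpi1 in addition; 1581), 3 by edgeR on the 8 libraries compared (617 of 17216), 3 with a filter of 1 count in total (793 of 33354) and 2 without the 3 libraries that stood apart (663 of 17852), against 5 (942 of 17830). For the average it was 5 at an adjusted p under 0.05 (1384) and 5 with the filter of 1 count (2075 of 33354), against 9 (2590). With 1 library left out these counts ran from 0 to 2, 2 to 7 and 5 to 9. The median log2 fold change under caffeine ran from 0.025 to 0.075. The counts for caffeine and for the difference between the responses stayed at 0 in every alternative run. For 34 differences of single genes (the 15 called and the others of smallest p between 2 groups), 714 values under the alternatives kept their side of the threshold, 90 lost a call and 3 gained one. Over all members, leaving out 1 library added 17 calls, in 9 genes. Fits with the filter of 1 count adjust over more genes, and those with fewer libraries have fewer mice; other causes were not tested. Adding the second Aldoa identifier was not tried. No paired analysis was possible because no 2 groups share a replicate number.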
